A study of Mus musculus with 20 samples.

Results

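Mature red blood cells have no nucleus, but young ones, the reticulocytes, still carry messenger RNA, nearly all of it for haemoglobin. The 5 genes described here, of 53465 gene identifiers in each table, are a fixed list of erythroid genes: Hbb-bs and Hbb-bt, Hba-a1 and Hba-a2, and Alas2. The list applies no threshold on measured values, but it was drawn up with earlier results of these data known. Adult haemoglobin joins a pair of alpha chains with a pair of beta chains, and each chain holds a haem. In mice, Hba-a1 and Hba-a2 encode adult alpha globin, and Hbb-bs and Hbb-bt encode adult beta globin. Alas2 encodes the erythroid 5-aminolevulinate synthase, the enzyme of the first step of haem synthesis in red cell precursors, while other tissues use the product of Alas1. Muscle holds blood in its vessels and is itself rich in myoglobin, another haem protein of the globin family, encoded by Mb.

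The samples were muscle of wild-type (WT) mice, with 5 libraries in each of 4 groups: female non-trained, female trained, male non-trained and male trained. All 4 groups share the wild-type genotype, and the labels name no strain, age, muscle, training regime, perfusion or batch. Library numbers 1 to 5 below only name the libraries of a group. Nothing in the labels ties a library to a separate animal, so each p-value reflects only how these libraries vary, which may be technical. Genes of the contractile apparatus were abundant in every library, as the tissue label says: the 10 skeletal muscle markers summed to between 138779 and 212162 CPM (counts divided by a library size that TMM has put on a common scale). Library totals ran from 22043145 to 38483572 counts, and genes of the mitochondrial genome took 11.2% to 15.9% of the counts. Across the 20 libraries, Hbb-bs was set against the total (Pearson r = -0.16, Spearman rho = -0.17, permutation p = 0.502 and 0.480), the number of genes above 0 (r = 0.07, rho = 0.09, permutation p = 0.777 and 0.689) and the mitochondrial percentage (r = -0.18, rho = -0.09, permutation p = 0.483 and 0.706). None of these 3 relations passed the threshold of an adjusted p of 0.05 (smallest adjusted permutation p = 0.706 over both measures). Without the 2 libraries farthest from the median of Hbb-bs, r was -0.20, -0.14 and -0.07.

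The 4 globin genes lie in 2 clusters and Alas2 lies apart from them. In GRCm38, Hbb-bt occupies bases 103812524 to 103813996 and Hbb-bs bases 103826534 to 103828096 of chromosome 7, both on the minus strand. Hba-a1 occupies bases 32283511 to 32284465 and Hba-a2 bases 32296489 to 32297298 of chromosome 11, both on the plus strand. Alas2 occupies bases 150547375 to 150570638 of the X chromosome, on the plus strand. The 150 bases before each gene's RefSeq start (RefSeq table of GRCm38.p6, where all 5 genes matched) are shown. The RefSeq starts lie downstream of the gene bounds above, so each window overlaps its gene, wholly for Hba-a1 and Hbb-bs. Capitals mark 4 short words on either strand: GATAA, the core of sites for GATA factors, CACCC, which Krüppel-like factors are known to bind, CCAAT, the core of the CCAAT box, and TATAA, the core of the TATA box. They are read 5′ to 3′ on the gene's strand, from chr7:103827929-103828078 (minus strand) for Hbb-bs, chr7:103813924-103814073 (minus strand) for Hbb-bt, chr11:32296342-32296491 (plus strand) for Hba-a2 and chrX:150547267-150547416 (plus strand) for Alas2.
Hbb-bs: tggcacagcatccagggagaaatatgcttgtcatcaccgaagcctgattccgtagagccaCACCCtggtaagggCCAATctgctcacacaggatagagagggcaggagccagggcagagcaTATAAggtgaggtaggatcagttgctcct
Hbb-bt: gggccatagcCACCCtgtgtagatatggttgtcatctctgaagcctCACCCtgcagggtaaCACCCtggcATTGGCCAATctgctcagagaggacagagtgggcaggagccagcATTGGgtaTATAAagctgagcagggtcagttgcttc
Hba-a2: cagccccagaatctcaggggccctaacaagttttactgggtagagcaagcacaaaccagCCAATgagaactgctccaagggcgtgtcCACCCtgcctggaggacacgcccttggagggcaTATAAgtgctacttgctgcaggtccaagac
Alas2: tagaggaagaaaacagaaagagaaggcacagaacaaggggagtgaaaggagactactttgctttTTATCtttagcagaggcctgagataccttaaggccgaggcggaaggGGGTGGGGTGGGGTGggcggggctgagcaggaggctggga

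The Hba-a1 window, chr11:32283522-32283671 (plus strand), held the same sequence as that of Hba-a2: shifted by 3 bases, 147 of 147 bases were identical. The beta globin windows differed more, with 106 of 149 bases identical (71.1%) at the best shift. CACCC was present in 5 of the 5 windows and in 37.4% of 32817 RefSeq promoter windows of the same length. CCAAT was present in 4 of the 5, against 24.5% of all windows, and TATAA in 4 of the 5, against 14.2%. The gene without either was Alas2. GATAA was present in 1 of the 5, that of Alas2, against 13.4% of all windows. In Hbb-bt, 2 CCAAT matches, 1 on each strand, adjoin and form 1 run of capitals. Each match is a description of letters in this window only.

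All 5 genes were detected in every library, and their level differed by over 15-fold between libraries. Hbb-bs ran from 82.5 to 1688 CPM (median 138.6, n = 20), Hbb-bt from 12.7 to 276.7 (median 22.7), Hba-a1 from 30.5 to 472.3 (median 46.4), Hba-a2 from 64.7 to 1250 (median 104.6) and Alas2 from 2.68 to 63.6 (median 4.44). The highest library exceeded the lowest 20.5-fold for Hbb-bs, 21.8-fold for Hbb-bt, 15.5-fold for Hba-a1, 19.3-fold for Hba-a2 and 23.7-fold for Alas2. Counts were high enough that counting error was small beside this range: the lowest count was 2546 for Hbb-bs, 374 for Hbb-bt, 907 for Hba-a1, 1996 for Hba-a2 and 75 for Alas2. For the 75 counts of Alas2, the counting error was 11.5%. Together the 4 globin genes took between 0.0186% and 0.385% of a library's counts. Fewer red cells in a sample and less RNA per red cell cannot be told apart in these bulk libraries.

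Hbb-bs stood at 141.9, 109.3, 82.5, 194.6 and 112.9 CPM in female non-trained libraries 1 to 5. In trained females it stood at 113.9, 375.1, 143.0, 99.9 and 97.9 CPM. Non-trained males had 103.0, 502.5, 218.5, 1688 and 169.5 CPM. In trained males the values were 149.6, 114.9, 135.3, 106.8 and 163.6 CPM. The range of non-trained males thus enclosed that of trained males, and 3 of its libraries, numbers 2, 3 and 4, lay above every non-trained female. Among trained females library 2 stood apart, at 375.1 CPM against at most 143.0 in the other 4.

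Hbb-bt, the less abundant beta chain gene, had 30.5, 16.2, 12.7, 30.8 and 17.6 CPM in non-trained females. Trained females had 21.5, 68.5, 27.5, 15.2 and 13.2 CPM. Non-trained males had 15.4, 75.3, 34.7, 276.7 and 37.3 CPM and trained males 22.9, 17.3, 22.4, 13.1 and 23.1 CPM. The same libraries were high as for Hbb-bs, male non-trained 4 and 2 and female trained 2, in that order.

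The alpha chain genes gave the same order at the top. Hba-a1 had 49.9, 37.9, 30.5, 72.3 and 34.9 CPM in non-trained females, while trained females had 44.0, 101.5, 50.5, 34.8 and 37.0 CPM. In non-trained males it stood at 41.2, 194.7, 73.7, 472.3 and 71.5 CPM, and in trained males at 48.6, 40.6, 44.3, 31.9 and 52.3 CPM. Male non-trained libraries 2 and 4 were again the highest of all. Hba-a2 had 100.4, 86.0, 64.7, 165.9 and 94.1 CPM in non-trained females, while trained females had 85.0, 246.6, 122.3, 80.2 and 71.5 CPM. Non-trained males had 80.4, 389.4, 150.1, 1250 and 130.1 CPM, and trained males 125.6, 86.0, 108.8, 84.3 and 120.2 CPM. For both genes, male non-trained library 1 lay within the range of the non-trained females, while libraries 2 and 4 of that group exceeded every library of the other groups.

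Alas2, the only one of the 5 that encodes an enzyme, had 4.95, 2.74, 3.24, 6.98 and 2.86 CPM in non-trained females. Trained females had 3.68, 14.0, 4.71, 4.16 and 2.68 CPM. In non-trained males it stood at 3.43, 17.5, 8.31, 63.6 and 7.73 CPM, and in trained males at 3.97, 4.09, 5.25, 2.92 and 5.20 CPM. Male non-trained library 4 was highest, followed by male non-trained 2 and female trained 2, as for the globin genes.

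**Figure D1:**
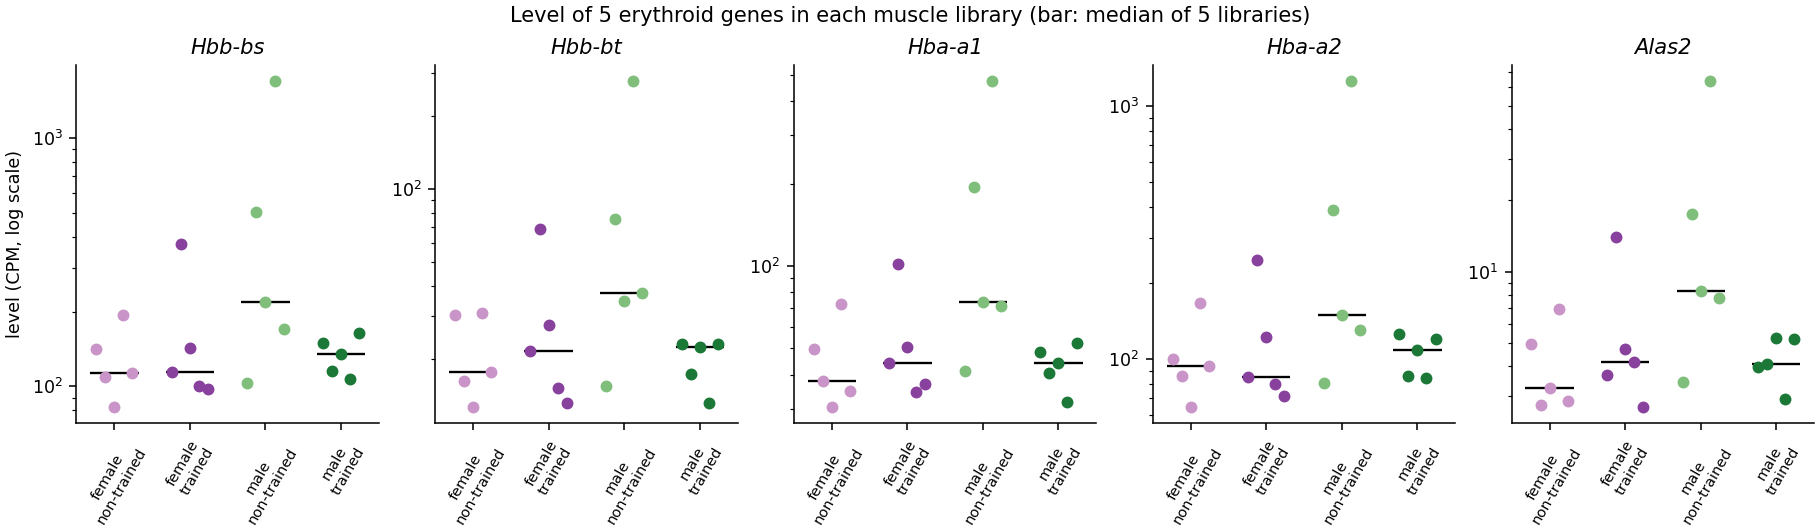
Level of each of the 5 genes in the 20 libraries, in CPM on a log axis, by group; points are libraries and bars are medians of 5. In each gene male non-trained library 4 is highest, at 1688 CPM for Hbb-bs and 63.6 CPM for Alas2, and the ranges of the groups overlap.

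By group median, Hbb-bs was highest in non-trained males (218.5 CPM), followed by trained males (135.3), trained females (113.9) and non-trained females (112.9). The mean ± SD was 536.3 ± 662 CPM in non-trained males, 166.0 ± 118 CPM in trained females, 134.1 ± 23.6 CPM in trained males and 128.2 ± 42.7 CPM in non-trained females (n = 5 each). Trained females thus stood above trained males by the mean and below them by the median, and 375.1 CPM in female trained library 2 enters that mean. For Alas2 the group medians were 8.31 CPM in non-trained males, 4.16 in trained females, 4.09 in trained males and 3.24 in non-trained females. The ranges of neighbouring groups overlapped for every one of the 5 genes, in each of the 4 comparisons of groups. The spread itself differed between groups: the summed CPM of the 4 globin genes varied 15.4-fold within non-trained males, 3.60-fold within trained females, 2.44-fold within non-trained females and 1.52-fold within trained males. Trained males thus had the narrowest range, 236.2 to 359.2 CPM. The differences in spread were not tested.

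Levels of different genes were compared per length, in the deposited TPM, which divides counts by effective transcript length. Hbb-bs was highest, with a median of 343.1 TPM, followed by Hba-a2 at 321.2, Hba-a1 at 158.1, Hbb-bt at 53.5 and Alas2 at 3.35. This order held in 20 of 20 libraries. The nearest neighbours were Hbb-bs and Hba-a2, whose ratio ran from 1.02 to 1.32, whereas Hba-a2 exceeded Hba-a1 by 1.60-fold to 2.37-fold. Hba-a1 exceeded Hbb-bt by 2.20-fold to 4.15-fold, and Hbb-bt exceeded Alas2 by 9.53-fold to 18.9-fold. Of the other globin family genes, Mb was far above them, with a mean of 3151 TPM. Mb ran from 922.0 to 3651 CPM and was highest in female non-trained library 4, which ranked between 4 and 6 of 20 in the 5 erythroid genes. Next came female trained library 2, at 2847 CPM, which ranked 3 in each of the 5. In male non-trained library 4, the highest in each of the 5, Mb stood at 1782 CPM, near its median of 1784 CPM.

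The split between sister genes is an estimate. RSEM shares out reads that match more than 1 gene, and of the 61-base stretches of the protein-coding Hba-a2 transcript, 84.4% also occur in Hba-a1. Of those of the longest protein-coding Hbb-bs transcript, 65.1% also occur in Hbb-bt, and none occur in an alpha globin gene or in Alas2. For Hba-a1, the deposited length was 494 to 497.5 bases. That is close to the 494 bases of its retained-intron transcript in GENCODE M21 and below the 699 bases of its protein-coding form, so its TPM depends on which form the reads were assigned to. For Alas2, the deposited length was lowest in male trained library 4, at 1430 bases, and reached 2037 bases elsewhere. A shorter length raises TPM, and that library gave the lowest ratio of Hbb-bt to Alas2, 9.53. Sums over both alpha genes or both beta genes do not depend on how reads were divided between sister genes, except through length.

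Ratios between the genes varied far less than their levels. Alpha globin summed over both genes stood to beta globin summed over both at 1.17 ± 0.0775 in TPM (SD, n = 20), with a range of 0.956 to 1.29 and a coefficient of variation of 6.64%. The summed globin TPM had a coefficient of variation of 148.8% over the same libraries. In the library with the most haemoglobin RNA, male non-trained 4, the alpha to beta ratio was 1.06, and in the one with the least, female non-trained 3, it was 1.22. The lowest ratio, 0.956, was that of female trained library 2, which was also the third highest in Hbb-bs.

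Hbb-bs exceeded Hbb-bt by 7.13 ± 1.02-fold in TPM (SD, n = 20; range 5.20 to 9.30). The 2 lowest values were 5.20 in male non-trained library 5 and 5.28 in female non-trained library 1, and the highest was 9.30 in male trained library 4. Hba-a1 stood to Hba-a2 at 0.513 ± 0.0624, with a range of 0.422 to 0.626. Alas2 stood to Hbb-bs at 0.0103 ± 0.00162 (range 0.00719 to 0.0133), and was 0.0111 in male non-trained library 4. The ratio of the enzyme gene to the globin gene thus varied 1.85-fold while both genes varied over 20-fold.

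The 4 ratios were compared between groups, on log2 ratios of CPM, in 4 comparisons each by a two-sided exact permutation test over all splits of 5 against 5, whose smallest possible p is 0.00794. Of the 16 tests, 0 passed the threshold of an adjusted p of 0.05, and 0 had an unadjusted p below 0.05. The smallest p, 0.0873 (exact permutation test, adjusted p = 0.508), belonged to Hba-a1 over Hba-a2 in males, where the ratio was lower by a log2 difference of -0.22 in trained than in non-trained mice. For alpha over beta globin the differences were -0.06 for training in females, 0.02 for training in males, -0.04 for sex in non-trained mice and 0.04 for sex in trained mice (exact permutation p = 0.548, 0.762, 0.595 and 0.817).

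**Figure D2:**
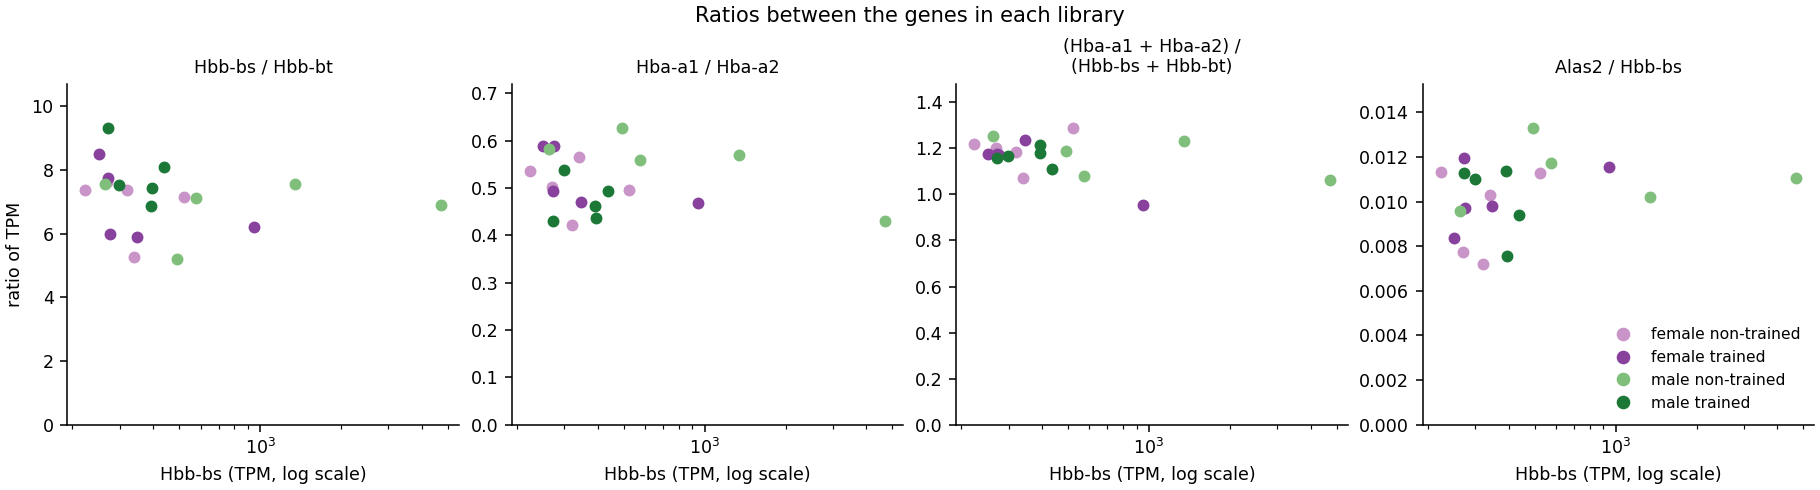
Ratios of TPM between the genes (linear axes from 0) against the TPM of Hbb-bs (log axis), 1 point per library, coloured by group. The alpha to beta ratio stays between 0.956 and 1.29 while Hbb-bs runs from 223.2 to 4707 TPM.

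The 5 genes rose and fell together from library to library. Over the 10 pairs of genes, Pearson's r of log2 CPM was 0.970 to 0.995 and Spearman's rho 0.844 to 0.980 (n = 20). Each permutation p was 1e-05, the smallest that 100000 resamples can give, and so was each value adjusted over the 10 pairs. The lowest pair was Hba-a2 with Alas2 and the highest was Hbb-bs with Hba-a2, 1 gene from each globin cluster. With group means taken out, r was 0.960 to 0.994. Without the 2 libraries farthest from the median, r was 0.897 to 0.980, so the relation did not rest on those libraries. Among 15709 tested genes, the 4 genes closest to Hbb-bs were Hba-a2, Hba-a1, Hbb-bt and Alas2, in that order, by r with group means taken out (0.994, 0.989, 0.977 and 0.970). They also ranked 1 to 4 without male non-trained library 4, with r of 0.987, 0.978, 0.957 and 0.941.

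The study's comparisons ask how training and sex changed muscle RNA. In non-trained mice, 2 of the 5 genes were called higher in males by edgeR's quasi-likelihood test (Benjamini-Hochberg adjusted p below 0.05), where 818 of 15709 genes, 5.21%, were called. Hba-a1 was higher by a log2 difference of 1.92 (SE 0.53, adjusted p = 0.0429) and Alas2 by 2.28 (SE 0.65, adjusted p = 0.0491). Hbb-bs differed by 2.06 (SE 0.61, adjusted p = 0.0587), Hba-a2 by 1.97 (SE 0.60, adjusted p = 0.0637) and Hbb-bt by 2.03 (SE 0.64, adjusted p = 0.0710), with sizes like those of the genes called. The median of the 5 was 2.03, against 0.00 over all genes tested. The groups overlapped in every gene: 4 of the 5 male libraries lay above every female library for Hbb-bt and Alas2, 3 for Hbb-bs and Hba-a1 and 2 for Hba-a2.

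The calls for sex in non-trained mice lay near the threshold and changed when single libraries were left out. Without male non-trained library 4, 0 of the 5 genes were called by edgeR (3 at an unadjusted p below 0.05) and the differences fell to between 0.88 (Hba-a2) and 1.16 (Alas2), with adjusted p of 0.148 to 0.302. The count was also 0 without any 1 of 12 other libraries (female non-trained 1, 2, 3 or 5, female trained 1, 4 or 5, male non-trained 2, male trained 1, 2, 4 or 5). Over these 12 fits the differences stayed between 1.80 and 2.36, with adjusted p of 0.0507 to 0.152 by edgeR. The count was 1 without female non-trained 4, female trained 3, male non-trained 3 or male trained 3, 3 without female trained 2, 4 without male non-trained 5 and 5 without male non-trained 1. Over all genes, 2.72% to 6.5% were called with 1 library left out, and 3.93% without male non-trained 4. DESeq2 called all 5 of these genes (adjusted p 0.00586 to 0.0174), where it called 1465 of 15702 genes, 9.33%. With limma-voom 0 of 5 were called (adjusted p 0.0680 to 0.142, all 5 at an unadjusted p below 0.05), against 1005 of 15709 genes, 6.4%. The edgeR fit without a low-count filter called 0 of 5 and 1.82% of all genes, and that of only the groups compared 0 of 5 and 3.02%, each with all 5 at an unadjusted p below 0.05. In each of these fits the 5 differences kept their sign.

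In trained mice no sex difference was called in the 5 genes, where 880 of 15709 genes, 5.6%, were called. The log2 differences, male minus female, ran from -0.56 (Hbb-bt, SE 0.62) to -0.21 (Hba-a2, SE 0.58), with adjusted p of 0.673 to 0.887 by edgeR, and 0 had an unadjusted p below 0.05. DESeq2 and limma-voom also called 0, against 8.92% and 4.65% of all genes. For Hbb-bs the 95% interval was -1.56 to 0.95. Without female trained library 2, the 5 differences changed sign and ran from 0.04 (Hbb-bt) to 0.24 (Hbb-bs).

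Training in males was not called for any of the 5 genes by edgeR, nor for any of the 15709 genes tested (0% called, 676 at an unadjusted p below 0.05). All 5 had an unadjusted p below 0.05. The log2 differences, trained minus non-trained, were -2.0 for Hbb-bs (SE 0.61), -2.15 for Hbb-bt (SE 0.64), -1.97 for Hba-a1 (SE 0.53), -1.93 for Hba-a2 (SE 0.60) and -2.23 for Alas2 (SE 0.64), each with an adjusted p of 0.993. The median of the 5 was -2.0, against 0.00 over all genes tested. DESeq2 and limma-voom also called 0 of the 5, against 0.0318% and 0% of all genes. Without male non-trained library 4 the differences ran from -0.84 (Hba-a2) to -1.13 (Hba-a1). Training in males and sex in non-trained mice share the 5 male non-trained libraries, so both carry the high values of libraries 2 and 4.

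In females, training gave log2 differences of 0.25 (Hba-a2, SE 0.58) to 0.50 (Alas2, SE 0.64), and none was called (adjusted p 0.890 to 0.952 by edgeR). Of the 15709 genes, 0 were called (0%), with 1347 at an unadjusted p below 0.05, none of them among the 5. DESeq2 and limma-voom called 0 of the 5 as well, against 0.153% and 0% of all genes. Without trained library 2 the differences changed sign, from -0.12 (Hba-a1) to -0.19 (Hba-a2). For Hbb-bs the 95% interval with all libraries was -0.88 to 1.63.

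The mean of both training effects was -0.81 (Hbb-bs) to -0.86 (Alas2), with 0 of the 5 genes called (adjusted p 0.496 to 0.592 by edgeR, 1 at an unadjusted p below 0.05) and 2 of 15709 genes, 0.0127%, called. The male minus the female effect, the training by sex interaction, was -2.18 (Hba-a2, SE 0.83) to -2.73 (Alas2, SE 0.90). It was called for 0 of the 5 (adjusted p 0.999 by edgeR, 5 at an unadjusted p below 0.05) and for 0 of the 15709 genes (0%, 656 at an unadjusted p below 0.05). DESeq2 called 0 of the 5 in both, against 0.194% of all genes for the mean effect and 0.00637% for the interaction, and limma-voom called 0 of the 5 and 0% of all genes in both. Without male non-trained library 4, the interaction was -1.08 (Hba-a2) to -1.61 (Alas2), and the mean effect was -0.26 (Hbb-bs) to -0.44 (Hba-a1).

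**Figure D3:**
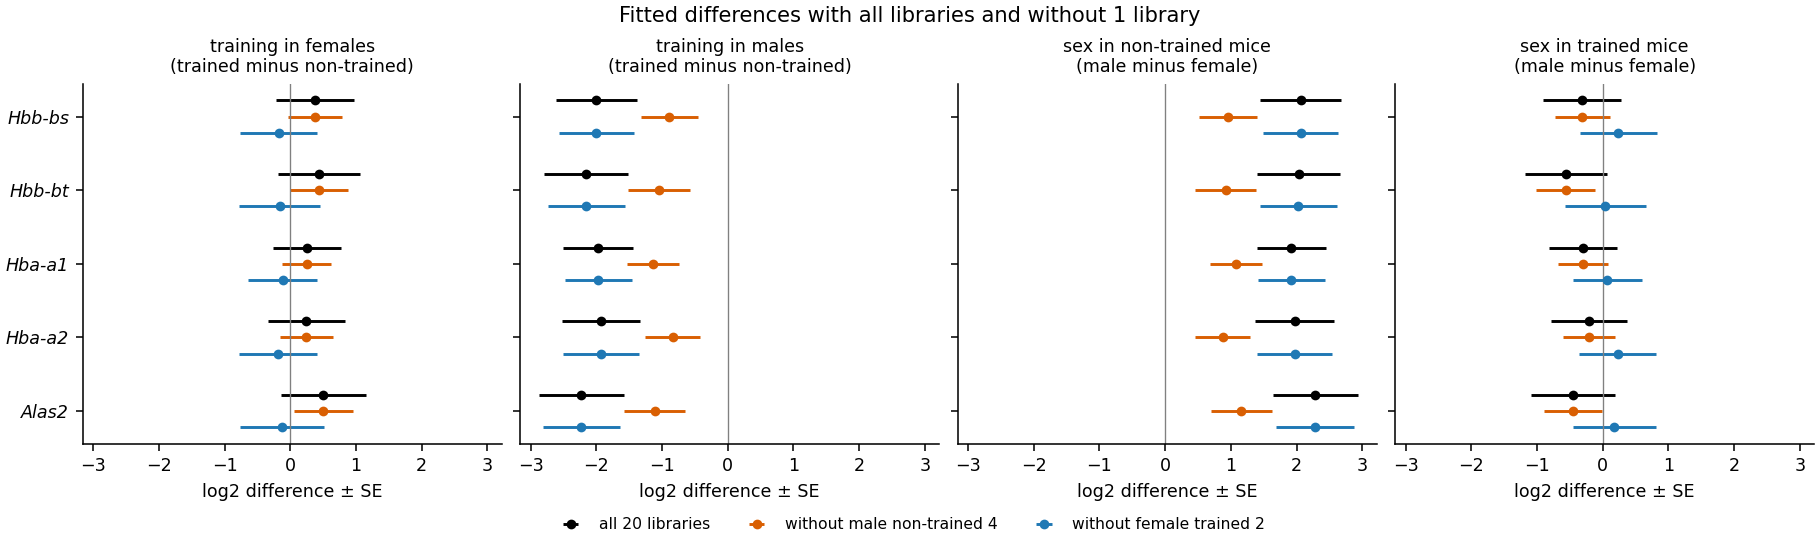
Fitted log2 differences ± SE of the 5 genes in 4 comparisons (edgeR), with all 20 libraries (black), without male non-trained library 4 (orange) and without female trained library 2 (blue). Without male non-trained 4, the sex difference of Hbb-bs in non-trained mice is 0.95 instead of 2.06, and without female trained 2 the effect of training in females changes sign.

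Genes of earlier red cell development were at or near 0. Hbb-y, Hbb-bh0, Hbb-bh1, Hbb-bh2 and Hba-x, globin genes of the embryo or of minor expression, had 0 counts in all 20 libraries, and Hbq1a and Hbq1b reached at most 4 and 6 counts. Gata1 and Klf1, which encode the main transcription factors of red cell precursors, reached at most 0.155 and 0.317 CPM, and Hemgn, an erythroid nuclear protein gene, at most 0.0933 CPM. Of the 8 transcription factor genes listed, the 4 that passed the filter on low counts (Tal1, Zfpm1, Lmo2 and Ldb1) are also used by other cells. Ldb1, which encodes an adaptor of transcription complexes, was higher in non-trained males than females by 0.32 (SE 0.08, adjusted p = 0.0162 by edgeR), and 0 of the 4 were called in another comparison. Over all genes tested, 5.21% were called for sex in non-trained mice.

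Some of the listed red cell genes besides globin were highest in male non-trained library 4: 4 of 14 red cell membrane genes and 5 of 16 other red cell and reticulocyte genes. The share of all genes that were highest in that library is not given here, so these counts have no background to be read against. Slc4a1 and Trim10, which were low throughout, were among them. Slc4a1, the gene of the red cell anion exchanger band 3, had 106 counts (3.61 CPM) in male non-trained library 4, 40 counts (1.43 CPM) in female trained library 2 and a median of 0.223 CPM. Trim10, an erythroid ubiquitin ligase gene, reached 0.886 and 0.429 CPM in those libraries. More abundant were Ube2o, a ubiquitin ligase gene of reticulocytes, at 48.3 CPM in male non-trained 4 and at most 43.7 elsewhere, and Mkrn1, at 27.4 and at most 18.3 CPM.

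Membrane skeleton and haem synthesis genes that muscle also expresses did not show that peak. Ank1, which encodes ankyrin 1, stood at 371.6 to 616.4 CPM, Sptb, a spectrin gene, at 324.2 to 424.1 CPM and Epb41, the protein 4.1 gene, at 107.2 to 144.6 CPM, each highest in a female non-trained library. Aqp1, the water channel gene of red cells and endothelium, was highest in female trained library 2 (433.7 CPM, next 265.3). Of the 9 haem synthesis genes besides Alas2, 0 were highest in male non-trained 4 and 0 were called in any of the 6 comparisons. Alas1, the general synthase gene, ran from 57.6 to 109.7 CPM, and Fech, which encodes the enzyme that puts iron into haem, from 126.4 to 159.0 CPM. Of the 7 tested red cell membrane genes, 1 was called, Gypc, the glycophorin C gene, higher in males by 0.77 in non-trained mice (SE 0.09, adjusted p = 1.0e-05) and by 0.64 in trained mice (SE 0.09, adjusted p = 1.2e-04). Of the 13 other red cell and reticulocyte genes tested, among them Prdx2 and Bnip3l, 0 were called in any comparison. Over all genes tested, 5.21% were called for sex in non-trained mice and 5.6% in trained mice.

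Markers of several other blood cells were high in male non-trained library 4 too. Of the 20 libraries it ranked 1 in the summed CPM of the platelet genes and 2 in those of the neutrophil, monocyte and macrophage genes, behind male trained library 3 in these 3 lists. It ranked 20, the lowest, in the T cell genes (0.954 CPM) and 4 in the B cell genes (227.6 CPM). Ppbp, a platelet chemokine gene, reached 3.47 CPM in male non-trained library 4 and at most 0.670 elsewhere, and S100a8 and S100a9, neutrophil calprotectin genes, peaked there at 3.37 and 4.63 CPM. Of the 8 platelet genes 5 were highest in that library, and of the 8 neutrophil genes 4 were. Of the 10 macrophage genes 9 were highest in male trained library 3, among them Lyz2 (349.9 CPM), and 1, Cd163, in male non-trained library 4. The share of all genes that were highest in either library is not given here. Hbb-bs was 135.3 CPM in male trained library 3. The 8 marrow precursor genes summed to 16.9 CPM in male trained library 3, of which Chil3, a chitinase-like gene that macrophages also express, made up 16.6 CPM. They summed to 6.67 CPM in female non-trained library 5, to at most 1.90 CPM in the other 18 libraries and to 0.579 CPM in male non-trained 4. Mpo and Elane, granule genes of marrow precursors, were at most 1.07 and 0.381 CPM, both in female non-trained library 5. Summed over the list, the platelet genes stood at 6.26 to 8.42 CPM in non-trained females, 5.92 to 10.1 in trained females, 11 to 19.1 in non-trained males and 7.06 to 17.6 in trained males. The neutrophil genes summed to 1.32 to 9.26, 1.61 to 11.4, 4.26 to 19.6 and 2.18 to 22.1 CPM in the same order, with Ly6g at no more than 0.0681 CPM. The monocyte genes summed to 84.9 CPM in male non-trained library 4 and 158.4 CPM in male trained library 3. The macrophage genes summed to 45.2 to 134.9, 70.9 to 147.0, 153.6 to 361.8 and 123.2 to 696.8 CPM, with 361.8 CPM in male non-trained library 4. The highest sum of each male group was above that of each female group for platelets, neutrophils and macrophages. Whether other blood cells or their share of a sample played a part in the result for the 5 genes was not tested.

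In the lists, calls fell in the sex comparisons alone, where 5.21% of all genes tested were called in non-trained mice and 5.6% in trained mice. Pf4, a platelet chemokine gene that macrophages also express, was higher in males by 1.88 in non-trained mice (SE 0.44, adjusted p = 0.0179 by edgeR) and by 1.56 in trained mice (SE 0.44, adjusted p = 0.0425), the 1 call among 4 tested platelet genes. Of 6 tested neutrophil genes 0 were called. Of 10 macrophage genes, 6 were higher in males in each training state, and of 5 monocyte genes 1 was, F13a1 in non-trained and Ccr2 in trained mice. Of 8 tested genes of haemoglobin and iron clearance, 1 was called in each state: Cd163, the scavenger receptor for haemoglobin bound to haptoglobin, by 1.32 in non-trained mice (SE 0.31, adjusted p = 0.0174), and Ftl1, the ferritin light chain gene, by 0.67 in trained mice (SE 0.19, adjusted p = 0.0442). The single tested T cell gene, the single tested marrow precursor gene and the 4 B cell, 10 endothelial, 8 smooth muscle and pericyte and 10 skeletal muscle genes had no call in any comparison. In non-trained mice the list medians, male minus female, were 1.53 for macrophages, 1.42 for monocytes, 1.11 for platelets, 0.89 for neutrophils and 0.89 for B cells. Haemoglobin and iron clearance had 0.65, erythroid transcription factors 0.24 and haem synthesis -0.09. The other red cell and reticulocyte genes stood at -0.03 and the red cell membrane genes at -0.07, against 2.03 for the 5 erythroid genes.

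The mean log2 CPM of each of 13 lists was set against Hbb-bs across the 20 libraries. It passed for 4 lists by Pearson's r (permutation test, adjusted over the 13): red cell membrane (r = 0.842, rho = 0.611, adjusted p = 6.5e-04 and 0.0456), other red cell and reticulocyte genes (r = 0.816, rho = 0.346, adjusted p = 0.00266 and 0.196), platelets (r = 0.647, rho = 0.567, adjusted p = 0.00802 and 0.0456) and neutrophils (r = 0.572, rho = 0.562, adjusted p = 0.0220 and 0.0456). Their r without the 2 libraries farthest from the median was 0.651, 0.392, 0.364 and 0.468. Haemoglobin and iron clearance passed by Spearman's rho but not by r (r = 0.422, rho = 0.544, adjusted permutation p = 0.119 and 0.0456). The mean of log2 CPM gives each gene of a list the same weight, however low its level. By summed CPM, male non-trained library 4 ranked 11 of 20 in the red cell membrane list. Without male non-trained library 4, 1 list passed by r, red cell membrane (r = 0.701, adjusted permutation p = 0.0166). By rho no list passed there, red cell membrane included (rho = 0.546, adjusted permutation p = 0.106). In that setting r was 0.558 for the other red cell genes, 0.421 for platelets and 0.401 for neutrophils (adjusted permutation p = 0.0911, 0.228 and 0.228). Without female trained library 2 the neutrophil list did not pass either (r = 0.533, adjusted permutation p = 0.0572). With group means taken out 3 lists passed: for platelets r was 0.526 (adjusted permutation p = 0.0525) and for neutrophils 0.556 (0.0441). Without male trained library 3, which was high in macrophage markers, 7 lists passed, with monocytes, macrophages and haemoglobin and iron clearance as the added ones. The raw permutation p of the 4 lists were 5.0e-05, 4.1e-04, 0.00185 and 0.00678. For macrophages r was 0.410 and rho 0.514 (adjusted permutation p = 0.119 and 0.0544), for endothelium 0.359 and 0.349 (0.180 and 0.196), for skeletal muscle -0.14 and -0.30 (0.590 and 0.265) and for haem synthesis -0.27 and -0.25 (0.301 and 0.327). The sign for haem synthesis was not stable: r was 0.19 without the 2 libraries farthest from the median and 0.20 in deposited TPM.

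**Figure D4:**
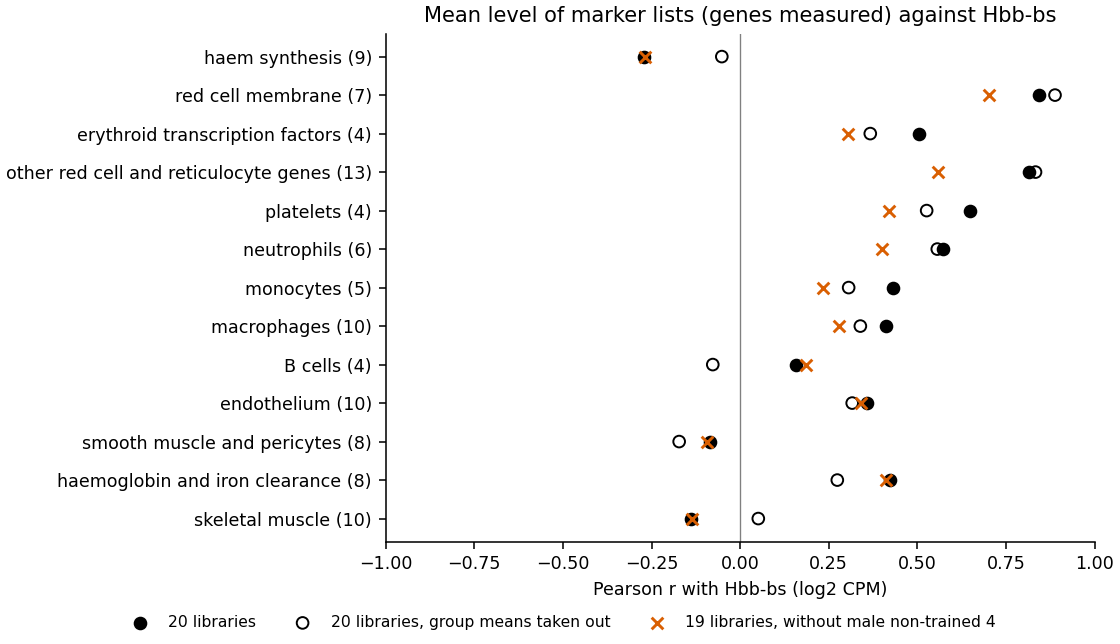
Pearson's r between Hbb-bs and the mean log2 CPM of each marker list, with the number of genes measured in brackets: all 20 libraries (filled), group means taken out (open) and without male non-trained library 4 (crosses). The mean of the red cell membrane list lies highest, at 0.842 over all libraries. That of the haem synthesis list, which did not pass, lies at -0.27 over all libraries and at -0.05 with group means taken out.

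Apart from the 5 genes themselves, 7 of the 8 genes with a mean of at least 1 CPM whose pattern was most like that of Hbb-bs are described here: Ube2l6, Mkrn1, Irf7, Rsad2, Tent5c, Isg20 and Cyb561. Their r with Hbb-bs over the 20 libraries, group means taken out, was 0.886, 0.838, 0.811, 0.782, 0.779, 0.774 and 0.764, each a description with no test. Ube2l6 encodes the conjugating enzyme for the ubiquitin-like protein ISG15, and Mkrn1 a ubiquitin ligase. Irf7, Rsad2 and Isg20 are known as interferon-induced genes, and Isg20 also stood in the reticulocyte list. Ube2l6 reached 15.7 CPM in male non-trained library 4, and was at 5.55 CPM or less in the trained females and 3.58 CPM or less in the non-trained females. Rsad2 stood at 18.7 CPM in that library, against at most 8.21 CPM in non-trained females. Cyb561, a cytochrome b561 gene, was highest in female trained library 2, at 6.66 CPM. Without male non-trained library 4, r of the 7 genes was 0.737, 0.645, 0.617, 0.573, 0.588, 0.668 and 0.697.

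**Figure D5:**
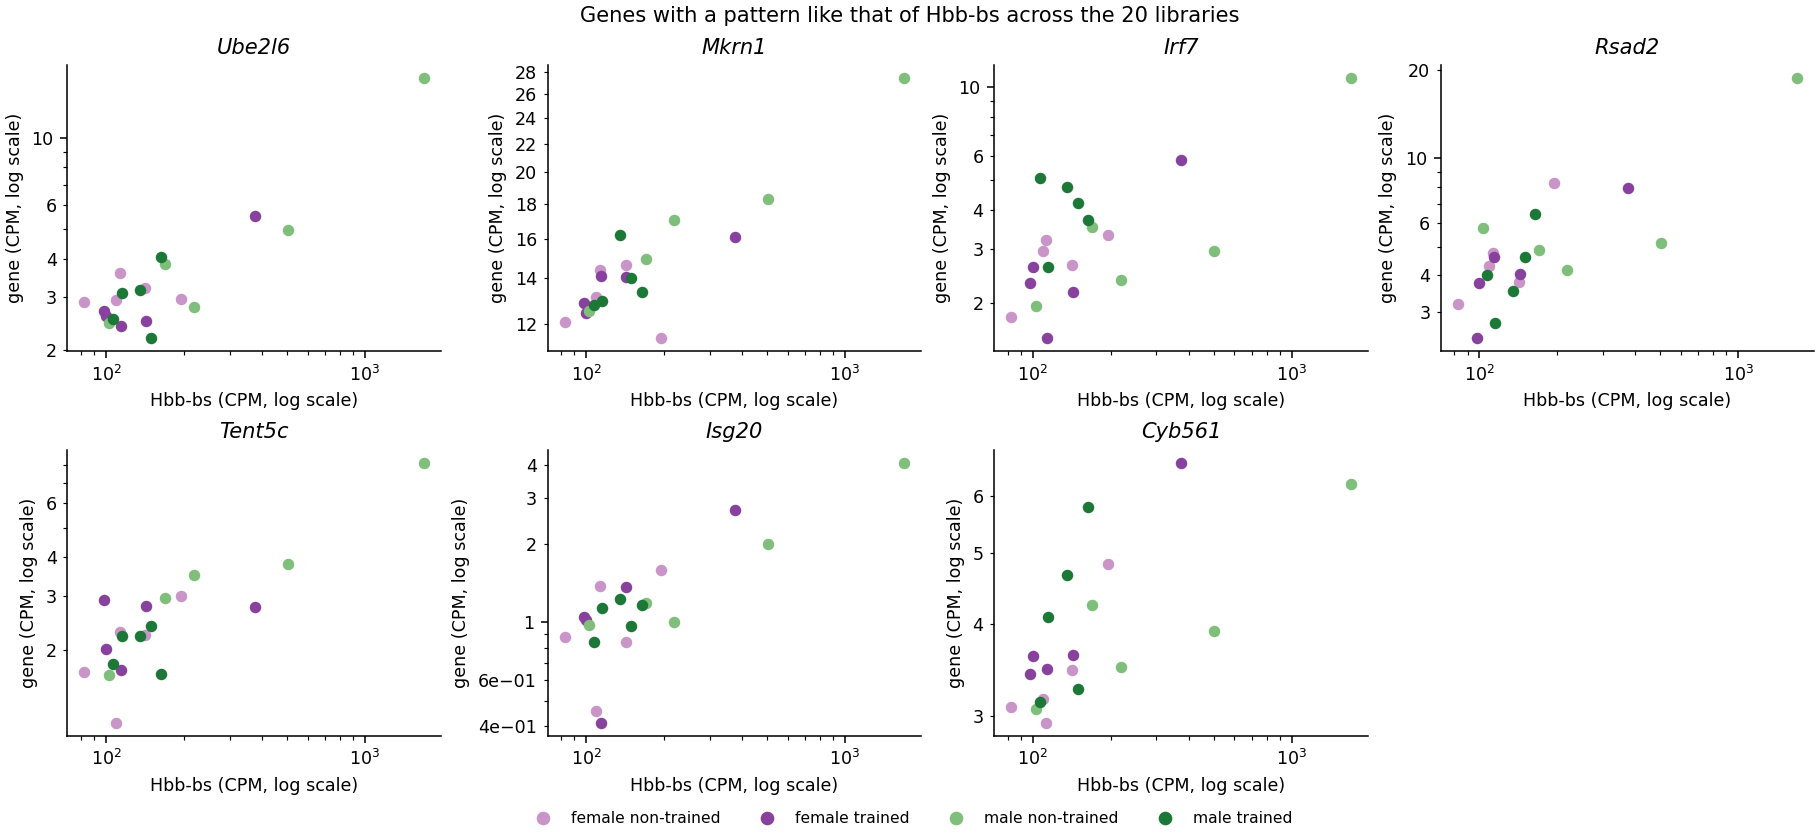
The 7 genes described, each in CPM against Hbb-bs in CPM (both axes log), 1 point per library, coloured by group. Male non-trained library 4 is the highest point in all panels but that of Cyb561, at 15.7 CPM for Ube2l6 and 18.7 CPM for Rsad2.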

How the data were processed

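RNA of mouse muscle was sequenced after poly(A) selection with a directional kit, per the labels' protocols. For each library the authors deposited expected counts of each gene estimated by RSEM and, per the file headers, TPM, which scales counts by effective transcript length and sums to a fixed total. The submitters' processing notes name RSEM 1.3.1 and STAR 2.5.1 beside cutadapt, Trim Galore, limma and edgeR, all with no role stated, and the build GRCm38 (annotation release: not given in the sources used here). Symbols and coordinates came from GENCODE M21, which matched 53360 of 53465 identifiers.

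Expected counts were rounded, filtered with filterByExpr (minimum count 10), scaled by TMM and fitted over all 20 libraries by the robust quasi-likelihood method of edgeR 4.0.16 (R 4.3.3), with a coefficient for each group, with p adjusted over 15709 genes by Benjamini-Hochberg. Log2 CPM used a prior count of 2, and ratios tested between groups had 0.5 counts added. The 5 genes, the marker lists and the tests were chosen with earlier results of these data known. Named genes were the 5, from each of 17 lists the 3 with the highest mean TPM and every one called, and the 8 genes most like Hbb-bs, and some genes that the rule takes are left out here. Genes named outside that rule were chosen after their values were seen. Alternatives were DESeq2 1.42.0, voom of limma 3.58.1, RLE factors, no TMM, a stricter low-count filter or none, only the groups compared, other added counts, group means taken out and each library left out. The fitting was tested on simulated data.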

Additional observations from a re-analysis of the deposited data

Results flagged for a closer look

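Within each group of 5 libraries, the highest and lowest library of 9 measures (the 5 genes in CPM and 4 ratios of counts) were compared with the rest by Dixon's criterion, 36 tests in all, of which 12 passed. Chance flags about 1 in 20 groups where values are normally distributed. The criterion was applied to CPM without a log scale, and CPM was skewed: Hbb-bs in non-trained males had a mean of 536.3 and a median of 218.5 CPM. The chance rate for these values is thus not known, and the criterion was not tested on log2 CPM. The 5 genes share libraries, so the 12 are not independent. Female trained library 2 stood above the other trained females at 375.1 CPM for Hbb-bs, 68.5 for Hbb-bt, 101.5 for Hba-a1, 246.6 for Hba-a2 and 14.0 for Alas2. For Hba-a2 it passed only barely: the gap to the next library, as a share of the range, was 0.71003 against a critical value of 0.71. Male non-trained library 4 stood above the other non-trained males at 1688 CPM for Hbb-bs, 276.7 for Hbb-bt, 1250 for Hba-a2 and 63.6 for Alas2. Its Hba-a1 did not meet the criterion. The count ratio of Hbb-bs to Hbb-bt was low in female non-trained library 1, at 4.66, and in male non-trained library 5, at 4.54, against medians of 6.41 and 6.29 in their groups. The count ratio of alpha to beta globin was low in female trained library 2, at 0.785, against a group median of 0.977.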

How the results depend on the processing

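The count of the 5 genes called for sex in non-trained mice, 2 in the reported fit, was 5 with DESeq2 and 0 with limma-voom, without a low-count filter and with only the groups compared, and it ran from 0 to 5 with 1 library left out. It was 2 with RLE factors, 2 without TMM and 3 with the stricter filter. Over all genes, 818 of 15709 were called in the reported fit, 1465 of 15702 with DESeq2, 1005 of 15709 with limma-voom, 569 of 31317 without a filter, 448 of 14823 with only the groups compared and 435 to 1038 with 1 library left out. RLE factors gave 873 of 15709, no TMM 721 of 15709 and the stricter filter 884 of 13308. In the other 5 comparisons the count of the 5 genes called was 0 under every alternative run. With 1 library left out, the training difference in females ran from -0.17 to 0.57 for Hbb-bs, -0.16 to 0.62 for Hbb-bt, -0.12 to 0.48 for Hba-a1, -0.19 to 0.49 for Hba-a2 and -0.12 to 0.76 for Alas2. The sex difference in trained mice ran from -0.45 to 0.24, -0.75 to 0.036, -0.42 to 0.067, -0.35 to 0.23 and -0.63 to 0.18 for the same genes. The lowest value of the first and the highest of the second were those without female trained library 2. The lists that followed Hbb-bs by Pearson's r numbered 4, 3 with group means taken out (the platelet list was lost), 5 in deposited TPM, and 1 to 7 with 1 library left out. No ratio was called and all 10 pairs stayed correlated under the alternatives run. No paired analysis was possible because the groups share no replicate numbers in the labels. Only the likeness without male non-trained library 4 was an alternative chosen after seeing the data. The cause of these changes was not tested.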
